A study of Mus musculus with 12 samples.

Results

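The genes of calcitonin gene-related peptide (CGRP) and adrenomedullin signalling were followed in the proximal colon of mice with and without the long noncoding RNA EPR. The set held 9 genes, taken by symbol from the 55376 genes of the count table: the receptor activity-modifying proteins Ramp1, Ramp2 and Ramp3, the receptor Calcrl, the ligands Calca, Calcb, Adm and Adm2, and the receptor component Crcp. Of these, 6 passed the low-count filter and were tested, and Ramp3, Calca and Adm2 did not pass. The set was chosen by measured values, since Ramp1 was taken up because of its lower level in EPR cKO colon, so the values of that comparison are given for all 9 genes as a description, with no p-value.

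Both groups were 12-week-old mice homozygous for an EPR allele flanked by loxP sites, and EPR fl/fl mice, which carried no Cre transgene, served as controls. EPR cKO mice (EPR fl/fl;CDX2P-NLS Cre) carried in addition a Cre recombinase driven by the human CDX2 promoter, which works in epithelial cells of the colon, the cecum and the end of the ileum, where Cre cuts out the EPR promoter and exon 1. Whole frozen tissue was sequenced as total RNA, 1 library per mouse and 6 mice per group, so that RNA of muscle, vessels and nerves was counted together with that of the epithelium. Whether Cre acted in those other tissues is not given in the sources used here. Which replicate was male or female, and which mice were littermates, is not given in the sources used here. In such bulk samples, fewer cells of a type and less RNA per cell cannot be told apart.

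CGRP and adrenomedullin are related peptides that act through the same receptor, CALCRL, whose choice of ligand is set by a small single-pass partner. CALCRL with RAMP1 forms the CGRP receptor, and CALCRL with RAMP2 or RAMP3 forms adrenomedullin receptors, and all of them act mainly through the stimulatory G protein and cyclic AMP. In the gut CGRP comes from sensory fibres and enteric neurons, widens vessels, and in mice drives mucus release from goblet cells that carry Ramp1, whereas Adm, Ramp2 and Calcrl are best known from blood and lymph vessels.

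Total counts were between 13093904 and 33211041 per library. EPR, listed as Smim31, had 794, 1474, 726, 1376, 297 and 783 counts in replicates 1 to 6 of EPR fl/fl, and was at or near 0 in each library labelled EPR cKO (1, 10, 0, 3, 4 and 1 counts). The 9 epithelial markers had a summed level of 8469 to 12190 CPM (counts per 1e6 counts, TMM-scaled) in the controls and 9594 to 15250 CPM in EPR cKO. EPR cKO 1 stood apart from the other libraries, with the highest summed level of the smooth muscle markers (8380 CPM, against 931.9 to 2445 CPM in the other EPR cKO libraries and 2792 to 4913 CPM in EPR fl/fl). Values without it are therefore given beside the results that it moves most. Over all genes, 251 of the 15952 tested were lower in EPR cKO at an adjusted p under 0.05 and 141 were higher.

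Of the 6 tested genes of the set, 1 passed that threshold, Ramp1, which was lower, and 0 were higher. Over all tested genes, 1.57% were called lower and 0.884% higher. Ramp1 was also the only one of the 6 whose groups did not overlap, which held for 1.47% of all tested genes with EPR cKO below and 1% with EPR cKO above. Without EPR cKO 1, 3 of the 6 were called lower (Ramp1, Calcrl and Calcb) and 0 higher. In that fit 14.4% of all tested genes were called lower and 7.44% higher. As Ramp1 was chosen for this difference, nothing is read from these counts.

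Ramp1 (ENSMUSG00000034353.14, mm10 chr1:91179822-91225196, plus strand) encodes the partner that makes CALCRL a CGRP receptor. Its level was 28.6, 30.1, 41.7, 37.2, 28.0 and 32.0 CPM in replicates 1 to 6 of EPR fl/fl. In replicates 1 to 6 of EPR cKO it was 14.7, 14.4, 12.1, 11.4, 13.0 and 11.6 CPM. Each of the EPR cKO libraries lay below each of the EPR fl/fl libraries, and EPR cKO 1, which stood apart in its muscle markers, was not apart from its group here. The means were 32.9 ± 5.43 and 12.9 ± 1.43 CPM (SD, n = 6 each), so that 39.1% of the control level remained, a log2 fold change of -1.36 (SE 0.12). This was the 113th lowest log2 fold change of the 15952 genes tested. The counts behind these values were 392 to 1320 per library in the controls and 218 to 419 in EPR cKO, and no stretch of 50 bases of its transcripts was found in a transcript of another gene.

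Calcrl (ENSMUSG00000059588.13, chr2:84330626-84425411, minus strand) encodes the receptor itself. In replicates 1 to 6 of EPR fl/fl its level was 25.9, 20.4, 22.2, 21.7, 20.0 and 22.9 CPM. In those of EPR cKO it was 34.6, 19.5, 11.4, 12.5, 11.1 and 10.1 CPM. EPR cKO 1 was the highest of the 12 libraries, whereas the other 5 EPR cKO libraries all lay below the lowest control. The means were 22.2 ± 2.11 and 16.5 ± 9.47 CPM (SD, n = 6 each), with a log2 fold change of -0.42 (SE 0.27). Without EPR cKO 1 the EPR cKO mean was 12.9 ± 3.79 CPM (SD, n = 5) and the log2 fold change -0.79 (SE 0.15).

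Ramp2 (ENSMUSG00000001240.13, chr11:101246028-101248250, plus strand) turns CALCRL into an adrenomedullin receptor. Its level was low, with 3.14, 2.20, 2.75, 2.43, 2.65 and 3.54 CPM in EPR fl/fl. In EPR cKO it was 5.93, 2.71, 2.40, 1.92, 1.00 and 1.54 CPM. The groups overlapped, and EPR cKO 1 was again the highest library. The log2 fold change was -0.12 (SE 0.35), and -0.56 (SE 0.25) without EPR cKO 1.

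Ramp3 (ENSMUSG00000041046.7, chr11:6658521-6677475, plus strand), the other adrenomedullin receptor partner, reached 1 CPM in 0 libraries and was not tested. It had 2, 7, 25, 13, 5 and 10 counts in the controls and 10, 11, 4, 9, 10 and 4 counts in EPR cKO, with overlapping groups. In addition, 7.62% of its exon bases lie under exons of Gm11978 on the opposite strand, and whether counting used the strand is not stated, so its count is uncertain.

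**Figure D1:**
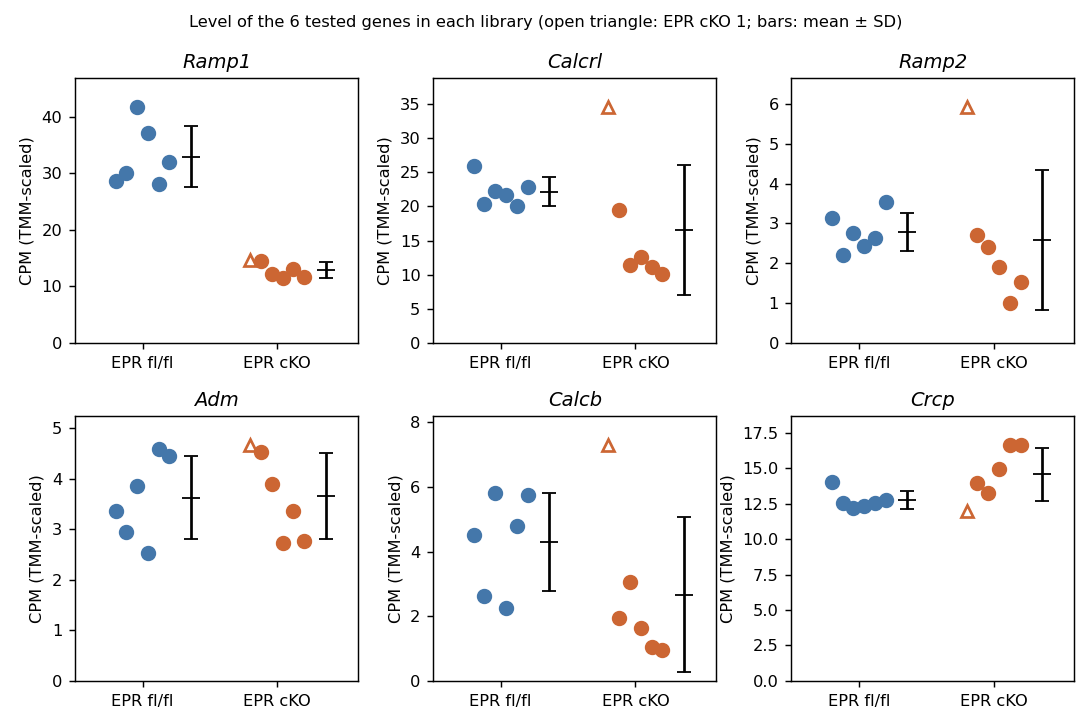
Level of the 6 tested genes in CPM (vertical axes, linear from 0) in each EPR fl/fl library (blue) and EPR cKO library (orange), with EPR cKO 1 as an open triangle and black bars for the mean ± SD of 6 libraries. Ramp1 is the gene without overlap between the groups, and EPR cKO 1 is the highest library for Calcrl, Ramp2, Calcb and Adm.

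To place the receptor genes in their sequence, the bases that precede their first exons were taken from RefSeq (GRCm38.p6) and are printed 5′ to 3′ on the strand of the gene. RefSeq promoter entries were matched for 6 of the 9 genes, and none for Ramp2, Calcb and Crcp. Both strands were searched for a TATA box (TATAAA), the core of the cyclic AMP response element (TGACG), the core of the hypoxia response element (ACGTG), a GC box (GGGCGG) and the core bound by caudal factors such as CDX2 (TTTATG). Capitals mark matches. Ramp1 covers chr1:91179572-91179821, plus strand. Ramp3 covers chr11:6658283-6658520, plus strand. Calcrl covers chr2:84425412-84425516, minus strand.
Ramp1: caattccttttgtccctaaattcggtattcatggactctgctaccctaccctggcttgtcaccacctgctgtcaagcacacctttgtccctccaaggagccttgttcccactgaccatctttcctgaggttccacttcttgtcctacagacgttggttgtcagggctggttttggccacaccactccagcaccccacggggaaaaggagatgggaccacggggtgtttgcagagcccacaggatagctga
Ramp3: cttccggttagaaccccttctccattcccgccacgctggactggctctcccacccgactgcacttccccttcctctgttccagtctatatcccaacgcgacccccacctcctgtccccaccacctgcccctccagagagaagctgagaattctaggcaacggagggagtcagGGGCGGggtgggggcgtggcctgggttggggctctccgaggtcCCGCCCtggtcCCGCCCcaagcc
Calcrl: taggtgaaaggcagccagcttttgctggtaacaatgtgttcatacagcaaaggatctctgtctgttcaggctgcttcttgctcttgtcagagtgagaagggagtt
In the stretches shown, Ramp1 and Calcrl held 0 matches, and Ramp3 held 3, all GC boxes. In the whole 250 bases before the RefSeq start, a GC box was also found for Calcrl, inside the gene as counted, and for Adm, and TGACG was found for Calca. Of 27025 promoters of the same length, 13.0% held TATAAA, 17.9% TGACG, 16.6% ACGTG, 32.9% GGGCGG and 11.1% TTTATG. These matches describe the letters of these windows, and binding was not measured here.

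Calcb (ENSMUSG00000030666.11, chr7:114718643-114723365, plus strand) encodes the form of CGRP that enteric neurons are known for. Its level was 4.53, 2.62, 5.82, 2.27, 4.79 and 5.74 CPM in EPR fl/fl. In EPR cKO it was 7.30, 1.95, 3.05, 1.65, 1.06 and 0.956 CPM. The groups overlapped, EPR cKO 1 was the highest of all libraries, and 4 of the other 5 EPR cKO libraries lay below the lowest control. The log2 fold change was -0.70 (SE 0.47). Without EPR cKO 1 the EPR cKO mean was 1.73 ± 0.843 CPM (SD, n = 5), against 4.29 ± 1.52 CPM in EPR fl/fl (SD, n = 6), and the log2 fold change was -1.33 (SE 0.34).

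Calca (ENSMUSG00000030669.13, chr7:114631478-114636357, minus strand), which gives calcitonin or the CGRP of sensory neurons by alternative splicing, was barely counted. It had 9 counts in all 6 EPR fl/fl libraries together, 5 of them in replicate 3, and 6 counts in EPR cKO, 5 of them in replicate 1. Sensory neurons keep most of their cell bodies outside the gut. Among their markers, Scn10a had 1 count in all 12 libraries, Mrgprd 3 and Trpv1 52, whereas Scn11a had 354, and the whole list summed to 0.843 to 2.435 CPM in the controls and 0.637 to 4.23 CPM in EPR cKO. A difference in Calca was not detectable at this depth.

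Adm (ENSMUSG00000030790.15, chr7:110627661-110629820, plus strand) encodes adrenomedullin, the vessel-relaxing ligand of the RAMP2 and RAMP3 receptors. It had 3.36, 2.95, 3.86, 2.53, 4.58 and 4.45 CPM in EPR fl/fl. In EPR cKO it had 4.67, 4.53, 3.90, 2.72, 3.36 and 2.76 CPM. The groups overlapped over nearly their whole range, with means of 3.62 ± 0.821 and 3.65 ± 0.849 CPM (SD, n = 6 each) and a log2 fold change of 0.02 (SE 0.20), whose sign turned to -0.02 with total counts in place of TMM scaling. Adm2 (ENSMUSG00000054136.6, chr15:89322720-89324731, plus strand), the related peptide intermedin, had 0 counts in EPR fl/fl, which allows up to 0.0219 CPM over that group (3 counts, counting error only). It had 3 counts in EPR cKO, 1 in replicate 2 and 2 in replicate 4.

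Crcp (ENSMUSG00000025532.13, chr5:130029290-130060789, plus strand) encodes a cytoplasmic protein that couples the CGRP receptor to signalling and is also a subunit of RNA polymerase III. Its level was 14.0, 12.6, 12.2, 12.3, 12.6 and 12.8 CPM in EPR fl/fl. In EPR cKO it was 12.0, 14.0, 13.3, 14.9, 16.7 and 16.7 CPM. EPR cKO 1 was the lowest of the 12 libraries, and the other EPR cKO libraries lay above all controls but EPR fl/fl 1. The log2 fold change was 0.19 (SE 0.09).

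Levels were compared between genes only after division by exon length, in CPM per kb of exon. In EPR fl/fl, Ramp1 was the highest of the 9 genes with 10.9 ± 1.80 CPM per kb, followed by Crcp with 8.55 ± 0.434 (SD, n = 6 each). Calcrl with 4.54 ± 0.431 and Calcb with 4.13 ± 1.46 CPM per kb were within their spread of each other, and so were Adm with 2.60 ± 0.591 and Ramp2 with 2.14 ± 0.374. Ramp3 had 0.335 ± 0.187 CPM per kb, and Calca and Adm2 were lower still. In EPR cKO, Crcp was highest with 9.77 ± 1.26 CPM per kb. Ramp1 had 4.26 ± 0.474 and Calcrl 3.39 ± 1.94 CPM per kb there (SD, n = 6), within their spread of each other. This rested on EPR cKO 1, since without it they had 4.14 ± 0.411 and 2.65 ± 0.777 CPM per kb (SD, n = 5), apart by more than their spread.

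The make-up of the RAMP transcripts followed from these levels. Per kb of exon, Ramp1 made up 81.4 ± 3.17% of the 3 RAMPs in EPR fl/fl (77.0 to 84.8%) and 67.4 ± 10.5% in EPR cKO (49.3 to 80.9%, SD, n = 6 each). The lowest share was that of EPR cKO 1, where Ramp2 reached 46.2%, and the highest in EPR cKO, that of replicate 5, lay within the control range. The summed RAMP level was 13.4 ± 1.95 CPM per kb in the controls and 6.54 ± 1.80 in EPR cKO. The ratio of Ramp1 to Calcrl was 1.79 to 3.04 in EPR fl/fl and 0.687 to 1.90 in EPR cKO, with the lowest value again in EPR cKO 1, and the ranges overlapped. Among the ligands, the ratio of Adm to Calcb was 0.496 to 0.841 in EPR fl/fl, 0.478 in EPR cKO 1 and 0.957 to 2.38 in the other EPR cKO libraries.

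**Figure D2:**
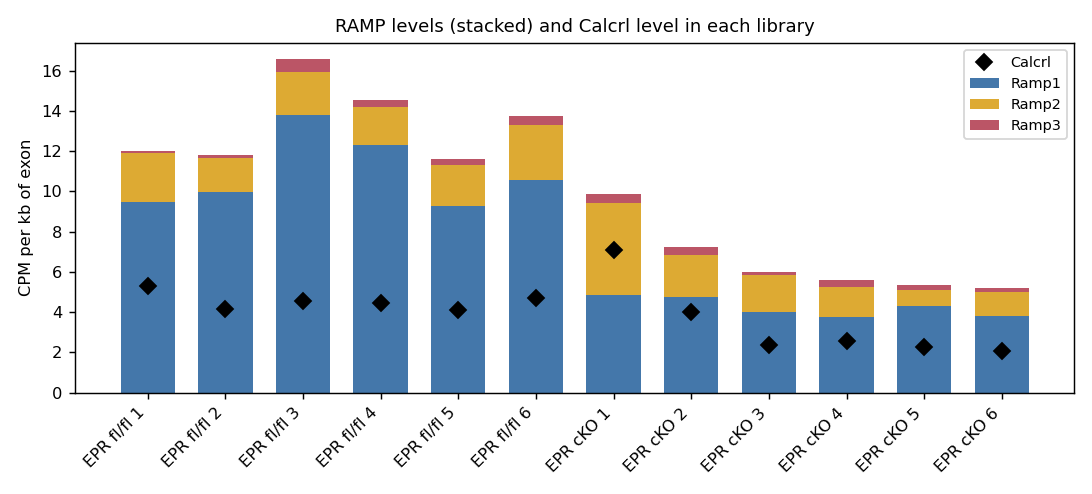
Ramp1, Ramp2 and Ramp3 levels as stacked bars and the Calcrl level as black diamonds, in CPM per kb of exon (vertical axis from 0), for each of the 12 libraries. The Ramp1 bar is 9.28 to 13.8 in EPR fl/fl and 3.78 to 4.87 in EPR cKO, and Calcrl exceeds Ramp1 only in EPR cKO 1.

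Levels of markers of several cell types were set beside those of these genes. Over all tested genes, 1.57% were called lower, 0.884% were called higher and 47.15% had negative log2 fold changes. Beside Ramp1, all 12 tested goblet cell markers had negative log2 fold changes and 7 were called lower, among them the mucin Muc2 (log2 fold change -2.19, SE 0.27, adjusted p = 0.000741) and Clca1 (-1.36, SE 0.28, adjusted p = 0.024). Their summed level was 13690 to 28820 CPM in the controls against 6289 to 8748 CPM in EPR cKO, without overlap. Most of that sum was Muc2, Fcgbp and Clca1. Taken singly, 6 of the 12 markers had groups without overlap, where 1.47% of all tested genes were lower without overlap. The authors had named Muc2, Fcgbp, Clca1, Agr2, Ern2 and Sytl2 as reduced in these same data, so the counts for this list are no independent readout. The part of the goblet cell markers in the Ramp1 difference was not tested. Both markers of interstitial cells of Cajal had negative log2 fold changes and Kit was called lower (-1.25, SE 0.21, adjusted p = 0.0074). Of 8 enteroendocrine markers, 1 was called higher, the peptide hormone Cck (1.35, SE 0.26, adjusted p = 0.0152), and the other 7 did not pass. The groups of Cck overlapped, at 1.515 ± 0.587 CPM in the controls against 3.83 ± 0.983 CPM in EPR cKO (SD). Of the 8, 2 had negative log2 fold changes, Chga (-0.18, SE 0.26) and Chgb (-0.11, SE 0.22), and the rest were positive. The summed level of the 8 overlapped too, with 266.5 to 606.4 CPM in the controls and 266.8 to 565.1 CPM in EPR cKO. All 5 adipocyte markers had negative log2 fold changes (median -1.54) that did not pass, with sums of 271 to 998.6 CPM in the controls, 564.8 CPM in EPR cKO 1 and 43.4 to 181.1 CPM in the other EPR cKO libraries.

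Beside Calcrl, Ramp2 and Calcb, the markers of muscle, vessels and neurons were each highest in EPR cKO 1. The 10 vascular endothelial markers summed to 74.8 to 90.8 CPM in EPR fl/fl, 126 CPM in EPR cKO 1 and 37.1 to 86.2 CPM in the other EPR cKO libraries. The 6 lymphatic markers summed to 73.1 to 132.4, 168 and 32.5 to 71.3 CPM in the same order. The 11 enteric neuron markers summed to 80.9 to 155, 288 and 36.2 to 83.1 CPM. None of these 3 lists, nor the 8 smooth muscle markers, had a member past the adjusted threshold.

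The difference between epithelial and smooth muscle marker levels (log2) was then entered in the fit as a tissue composition covariate. The log2 fold change of Ramp1 was then -1.24 (SE 0.13). That of Calcrl became 0.00 (SE 0.13), that of Calcb -0.04 (SE 0.27), that of Crcp 0.03 (SE 0.08), that of Ramp2 0.42 (SE 0.18) and that of Adm 0.28 (SE 0.20). These are descriptions too, and what part tissue composition has in them was not tested.

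**Figure D3:**
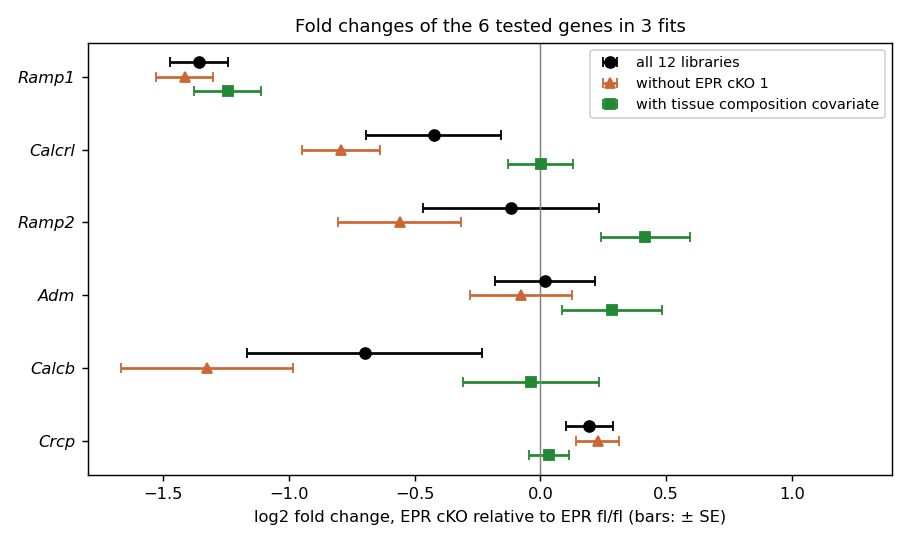
Log2 fold change of EPR cKO relative to EPR fl/fl (horizontal axis, bars ± SE) of the 6 tested genes with all 12 libraries (black), without EPR cKO 1 (orange) and with the tissue composition covariate (green). Ramp1 stays between -1.41 and -1.24, whereas Calcrl runs from -0.79 to 0.00 and Calcb from -1.33 to -0.04.

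Variation within a group had not been used to choose the genes, so each tested gene was compared with 5 marker lists inside each group of 6 libraries (60 relations, two-sided exact permutation tests, Benjamini-Hochberg adjusted over the 60). In all, 7 relations passed an adjusted p under 0.05, each of them in EPR cKO. Ramp2 followed smooth muscle (Pearson r = 0.97, exact p = 0.00139, adjusted p = 0.0208; Spearman rho = 1, exact p = 0.00278, adjusted p = 0.0417), and r was 0.97 without the 2 libraries farthest from the median. Calcb followed enteric neurons (r = 0.97, exact p = 0.00139, adjusted p = 0.0208; rho = 1, exact p = 0.00278, adjusted p = 0.0417), with r = 0.83 without the 2 farthest libraries. Calcrl ran against epithelium (r = -0.97, exact p = 0.00139, adjusted p = 0.0208; rho = -1, exact p = 0.00278, adjusted p = 0.0417), with r = -0.88 without the 2 farthest libraries. These p-values are the smallest that the permutations can give. In EPR cKO other lists came near these values without passing. With smooth muscle, r was 0.95 for Calcb (adjusted p = 0.0648) and 0.94 for Calcrl (adjusted p = 0.075). With enteric neurons, r was 0.93 for Ramp2 (adjusted p = 0.0625) and 0.92 for Calcrl (adjusted p = 0.103). Differences in r between lists were not tested.

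Vascular endothelium was followed by Calcrl (r = 0.95, exact p = 0.00417, adjusted p = 0.0417; rho = 0.94, exact p = 0.0167, adjusted p = 0.154) and by Ramp2 (r = 0.94, exact p = 0.00417, adjusted p = 0.0417; rho = 0.94, exact p = 0.0167, adjusted p = 0.154). Without the 2 farthest libraries r was 0.78 and 0.79. Crcp ran against enteric neurons (r = -0.93, exact p = 0.00139, adjusted p = 0.0208; rho = -1, exact p = 0.00278, adjusted p = 0.0417) and smooth muscle (r = -0.93, exact p = 0.00556, adjusted p = 0.0476; rho = -0.89, exact p = 0.0333, adjusted p = 0.154). Here r without the 2 farthest libraries was -0.89 and -0.86. Without EPR cKO 1, r was 0.85 to 0.92 in the 4 positive relations and -0.92 to -0.90 in the 3 negative ones, and 0 of them passed the adjusted threshold with these 5 libraries, which allow no exact p as small. None of these relations passed in EPR fl/fl. There r was 0.77 for Ramp2 with smooth muscle and 0.86 for Calcb with enteric neurons. It was -0.0027 for Calcrl with epithelium, and with vascular endothelium -0.25 for Calcrl and 0.20 for Ramp2. For Crcp it was -0.18 with enteric neurons and 0.08 with smooth muscle.

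Ramp1 passed in 0 of its 10 relations. With goblet cells r was 0.74 in EPR fl/fl (exact p = 0.0792, adjusted p = 0.176; rho = 0.60, exact p = 0.242) and 0.33 in EPR cKO (exact p = 0.465; rho = 0.09, exact p = 0.919). The value in EPR fl/fl rested on 2 libraries, since r was -0.18 without those farthest from the median. With vascular endothelium it was -0.82 in EPR fl/fl (exact p = 0.0361, adjusted p = 0.115; rho = -0.83, exact p = 0.0583) and 0.71 in EPR cKO (exact p = 0.129; rho = 0.49, exact p = 0.356), and the difference between the groups was not tested. With epithelium r was -0.79 in EPR fl/fl (exact p = 0.0653) and -0.73 in EPR cKO (exact p = 0.0903). With smooth muscle it was -0.19 and 0.73 in the same order (exact p = 0.722 and 0.0792). With enteric neurons it was 0.10 and 0.75 (exact p = 0.839 and 0.0722). Without the 2 farthest libraries, r in EPR cKO was -0.33 for epithelium, 0.84 for smooth muscle and 0.42 for enteric neurons.

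**Figure D4:**
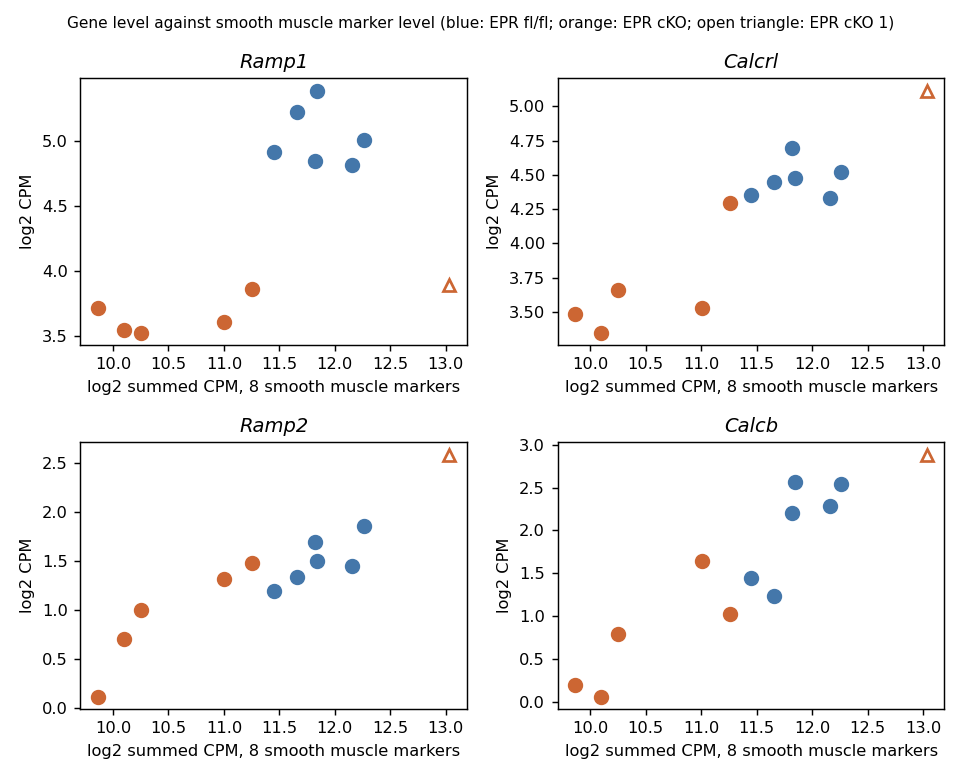
Log2 CPM of Ramp1, Calcrl, Ramp2 and Calcb (vertical axes) against the log2 summed CPM of 8 smooth muscle markers (horizontal axes) in each EPR fl/fl library (blue) and EPR cKO library (orange), with EPR cKO 1 as an open triangle. Ramp1 is below all controls in each EPR cKO library, while Ramp2, Calcrl and Calcb are highest in EPR cKO 1, where the muscle markers are highest. The muscle markers of EPR cKO 1 lie above all controls and those of the other EPR cKO libraries below all controls. No EPR cKO library lies within the control range of these markers.

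Tested genes were ranked by how like Ramp1 their deviations from the group means were over the 12 libraries. Gm, Rik and accession-like symbols and mitochondrially encoded genes were left out. The highest were Tmcc1 (Pearson r = 0.97), Phf12 (0.94), Zmynd8 (0.92), Kif21b (0.92) and Ptprn2 (0.90). As the extremes of a search over all remaining tested genes, they are given as a description. Of these 5, Tmcc1, Phf12, Zmynd8 and Kif21b had log2 fold changes between -0.13 and -0.01 that did not pass the threshold. Ptprn2, which encodes a membrane protein of dense-core secretory vesicles, was lower without overlap, with 62.8 ± 12.6 CPM in the controls against 24.6 ± 3.22 CPM (SD, n = 6 each; log2 fold change -1.35, SE 0.13, adjusted p = 0.000103).

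The wider pathway was read from 6 lists of genes that make, cleave, sense or relay such peptides. Of 80 listed genes in the table, 68 were tested, 4 were called lower (Vipr2, Rapgef3, Pcsk1 and Dpp4) and 0 higher, where 1.57% of all tested genes were called lower and 0.884% higher. At an unadjusted p under 0.05 there were 8 lower and 5 higher, where 7.12% and 11.1% of all tested genes were. DESeq2 called 5 lower and 3 higher, where it called 2.97% and 2.76% of all tested genes. The median log2 fold change was -0.10, with 42 of 68 negative, against a median of 0.02 over all tested genes, of which 47.1% were negative. Without EPR cKO 1, 25 were called lower and 3 higher, where 14.4% and 7.44% of all tested genes were called.

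The strongest of them was Vipr2, a receptor for vasoactive intestinal peptide that is coupled to the same G protein. Its level was 8.47, 7.55, 9.93, 10.3, 7.94 and 6.22 CPM in the controls, against 4.72, 2.96, 2.20, 2.32, 2.12 and 3.13 CPM in EPR cKO. The groups did not overlap (log2 fold change -1.54, SE 0.21, adjusted p = 0.00168). The other tested receptors of its list had log2 fold changes between -0.73 (Pth1r, SE 0.40, adjusted p = 0.357) and 0.44. Without EPR cKO 1, Pth1r was called lower (-1.21, SE 0.31, adjusted p = 0.0176), as were 4 of the 6 in all, where 14.4% of all tested genes were. The value of 0.44 was Glp1r, the receptor of glucagon-like peptide 1, named after its values were seen because its groups did not overlap (2.96 ± 0.496 CPM in the controls against 4.01 ± 0.48 CPM, SD, n = 6 each), although it did not pass the threshold (edgeR adjusted p = 0.152).

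Among genes that respond to cyclic AMP or break it down, 1 of 23 was called, Rapgef3. It encodes EPAC1, an exchange factor that cyclic AMP switches on, and had 12.8, 13.8, 22.9, 18.4, 16.2 and 12.3 CPM in the controls, against 7.58, 9.90, 8.15, 9.90, 8.05 and 9.35 CPM in EPR cKO. The groups did not overlap (log2 fold change -0.87, SE 0.15, adjusted p = 0.0097). Prkar2b, a regulatory subunit of protein kinase A, had the largest value of the list, -1.19 (SE 0.50), and did not pass (adjusted p = 0.23), but without EPR cKO 1 it was -1.87 (SE 0.37, adjusted p = 0.00599). In that fit 8 of the 23 were called lower and 1 higher, where 14.4% and 7.44% of all tested genes were. Of 19 tested genes for G proteins, adenylyl cyclases, arrestins and receptor kinases, 0 passed, the 2 largest values being those of the receptor kinase Grk3 (-0.87, SE 0.25, adjusted p = 0.0863) and the cyclase Adcy4 (-0.58, SE 0.29, adjusted p = 0.308). When EPR cKO 1 was left out, 6 of the 19 were called lower and 2 higher, beside the same shares of all tested genes. The values were then -1.18 (SE 0.15, adjusted p = 0.000617) for Grk3 and -0.87 (SE 0.24, adjusted p = 0.021) for Adcy4.

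Of 10 tested genes for the maturation and breakdown of peptides, Pcsk1 and Dpp4 were called lower. Pcsk1, a convertase that cuts prohormones in secretory granules, had 35.9, 33.8, 55.0, 44.3, 40.2 and 27.7 CPM in the controls, against 26.2, 25.1, 22.1, 27.2, 24.5 and 21.4 CPM in EPR cKO (log2 fold change -0.69, SE 0.14, adjusted p = 0.0218). Dpp4, a surface peptidase of the epithelium, had 44.1, 42.9, 32.9, 33.7, 42.5 and 32.6 CPM in the controls, against 24.5, 28.8, 27.7, 21.4, 31.1 and 29.5 CPM in EPR cKO (-0.49, SE 0.11, adjusted p = 0.0403). The groups did not overlap for either gene. When each library was left out in turn, Dpp4 passed in 3 of 12 fits and Pcsk1 in 9. Neither passed with a replicate block, nor did Pcsk1 with the tissue composition covariate or Dpp4 without a low-count filter. In the fit without EPR cKO 1, 5 of the 10 were called lower and 0 higher, where 14.4% and 7.44% of all tested genes were.

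Of the other ligands and receptors of the family, 3 of 5 were tested and 0 passed. Among them was Ackr3, a scavenger receptor of adrenomedullin (log2 fold change -0.41, SE 0.31, adjusted p = 0.496). Of the 7 Gs-coupled receptors of epithelium, 0 passed. With EPR cKO 1 left out, 1 gene of each of these 2 lists was called lower and 0 higher, where 14.4% and 7.44% of all tested genes were. Ackr3 was not called in that fit (-0.66, SE 0.28, adjusted p = 0.104).

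**Figure D5:**
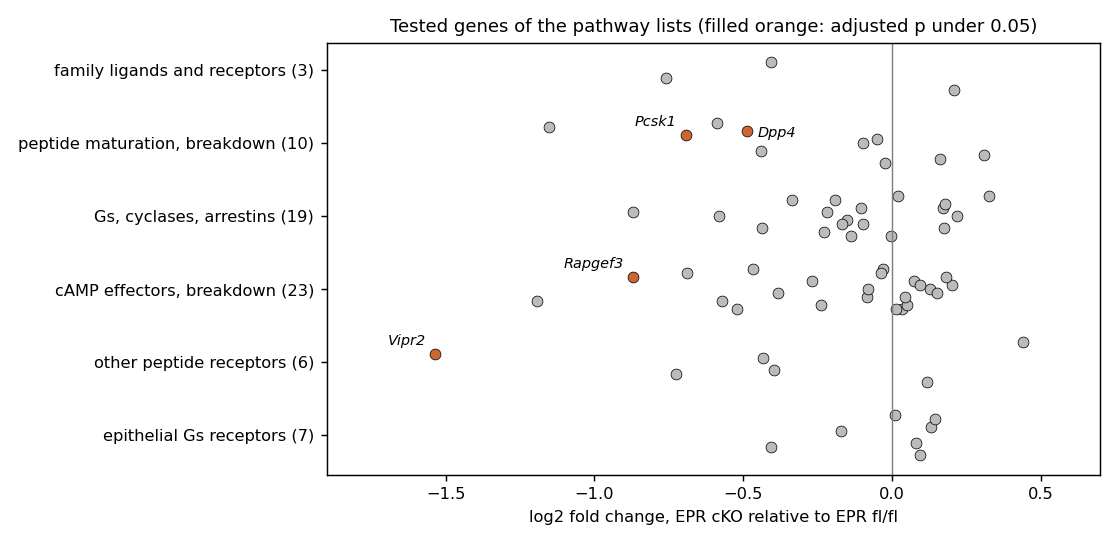
Log2 fold change of EPR cKO relative to EPR fl/fl (horizontal axis) of the 68 tested pathway genes, 1 point per gene in a row per list, with the number tested in parentheses. The 4 orange points passed an adjusted p under 0.05, all lie below 0, and Vipr2 is the lowest of all points.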

How the data were processed

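The 12 libraries of proximal colon RNA were grouped by their labels. The authors made rRNA-depleted stranded libraries, aligned reads to mm10 with STAR 2.5.3a and deposited raw gene counts from featureCounts. Whether counting used the strand, and how multi-mapped reads were treated, is not given in the sources used here. Genes with at least 1 CPM in at least 4 libraries were tested in edgeR 4.0.16 (R 4.3.3; TMM, glmQLFTest, no covariate), with Benjamini-Hochberg adjustment over the 15952 genes tested (threshold 0.05). SE was the log2 fold change over the square root of F. CPM values were TMM-scaled, and log2 CPM used a prior count of 2. Sequences came from RefSeq tables, and shared stretches from GENCODE transcripts. The edgeR step was tested on simulated data.

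The genes, lists and tests were chosen with earlier results of these data known. Named were the 9 genes, Smim31, pathway genes past the threshold (or the 2 with the largest change in a list with fewer than 2), markers that moved, and the 5 genes most like Ramp1. Those 5 were taken without Gm, Rik and accession-like symbols and mitochondrially encoded genes. Alternatives included DESeq2 1.42.0, limma 3.58.1, other scalings and filters, a replicate block, a tissue composition covariate and leaving out each library. The p-values measure the spread between mice. Some pathway genes that the naming rule covers are not reported here.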

Additional observations from a re-analysis of the deposited data

Results flagged for a closer look

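In 14 sets of 6 libraries (the 6 tested genes and Ramp3 in each group), 1 library stood far from the others of its group in 3, by Dixon's ratio of the gap to the range, where chance flags about 1 in 20. EPR cKO 1 had 5.93 CPM of Ramp2, against 0.995 to 2.71 CPM in the other EPR cKO libraries. The same library had 7.30 CPM of Calcb, against 0.956 to 3.05 CPM. EPR fl/fl 1 had 14.0 CPM of Crcp, against 12.2 to 12.8 CPM in the other EPR fl/fl libraries.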

How the results depend on the processing

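The log2 fold change of Ramp1, a description, was -1.40 to -1.24 in the 10 alternatives with all libraries and -1.41 to -1.28 in the 12 fits without 1 library. Calcrl was -0.75 with quality weights in limma-voom. With the tissue composition covariate, Calcrl became 0.0013, Ramp2 0.42 and Adm 0.28. Without 1 library Ramp2 ran from -0.56 to 0.0586 (the latter without EPR cKO 5) and Adm from -0.0776 to 0.0905. Adm was also -0.0204 with total counts and -0.0037 without a filter.

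Genes called lower and higher were 247 and 39 with total counts, 473 and 440 with DESeq2, and 1891 and 1372 with quality weights. The number higher was 54 without a filter and 82 with the covariate. Without 1 library 145 to 2273 were lower and 31 to 1178 higher, and of the pathway genes 2 to 25 were lower and 0 to 3 higher. The highest of these counts were those without EPR cKO 1, and 2 pathway genes were lower without EPR fl/fl 4, EPR cKO 3 or EPR cKO 6. Pathway genes called were 20 lower and 5 higher with quality weights, and 3 higher with DESeq2. Vipr2 and Rapgef3 passed in all of these fits.

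Same-numbered libraries deviated together with r of -0.24 to 0.34, and 2 of 6 matched their own number best. Whether same-numbered mice were paired is not given in the sources used here, and these values cannot decide it. With a replicate block, Ramp1 was -1.35, 67 genes were higher, and 2 pathway genes were called lower.

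Of the relations of Ramp1 with marker lists, those in EPR fl/fl changed sign without the 2 farthest libraries for goblet cells (-0.18) and epithelium (0.98). With total counts they did so for smooth muscle (0.10) and vascular endothelium (0.0577). Without 1 library r ran from -0.49 to 0.0398 for smooth muscle and from -0.53 to 0.50 for enteric neurons. In EPR cKO, vascular endothelium was -0.71 without the 2 farthest libraries. The cause of these changes was not tested. Depth limited Ramp3, Calca and Adm2.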
